A study of Homo sapiens with 12 samples.

Results

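The 10 genes described here are those most often used to mark or define stem-like and tumour-initiating cells: CD44, PROM1, ALDH1A1, ALDH1A3, SOX2, POU5F1, NANOG, KLF4, MYC and BMI1. They were taken by gene name from a table of 58735 genes measured in 12 RNA-seq libraries of MSTO-211H, an established human line of biphasic pleural mesothelioma, and all 10 had a row. The cells were grown in suspension with epidermal growth factor, fibroblast growth factor 2 and heparin, and the labels call them mesothelioma-initiating cells. They were given QTP at 10 uM or vehicle and, on the following day, 4 Gy or sham irradiation, and RNA was taken after another 48 h. Each of the 4 groups had 3 libraries: IR (vehicle and 4 Gy), Rx (read as QTP and sham), Combo (read as QTP and 4 Gy) and Con (vehicle and sham). The labels name the groups by these short titles only, so the reading follows from the crossed design, and they do not spell out QTP. The series title speaks of dopamine receptor inhibition. All groups share a single cell line and the growth-factor suspension medium, and there was no adherent or unsorted culture to set beside them.

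CD44, the hyaluronan receptor, and PROM1, the gene of CD133, are surface proteins used to sort tumour-initiating cells. ALDH1A1 and ALDH1A3 oxidise retinaldehyde to retinoic acid and are sources of the activity read by aldehyde dehydrogenase flow assays. POU5F1 (OCT4), SOX2 and NANOG form the core transcription circuit of pluripotent cells, and POU5F1, SOX2, KLF4 and MYC together are the factors that reprogramme somatic cells. BMI1 is a subunit of Polycomb repressive complex 1, known for silencing the CDKN2A locus in self-renewing stem cells.

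Library depth, recovered from the steps in the values, ran from 13188257 to 18630958 reads. The 6 QTP libraries held 14925895 to 18630958 reads and the 6 vehicle libraries 13188257 to 16269195. Libraries IR 3 and Combo 3 lay at opposite ends of the leading principal component, which held 26.5% of the variance. The mesothelial markers KRT18 at 549 FPKM and MSLN at 40.1 FPKM were present, while WT1 averaged 0.955 FPKM and PDPN had no read. Of the 16 mesothelial markers, 5 averaged at least 1 FPKM. Every marker on the immune, endothelial and germ or embryonic lists averaged under 1 FPKM. Of the 4 fibroblast markers, LUM averaged 4.98 FPKM and COL1A1 2.49 FPKM, and the other 2 averaged under 1 FPKM. The p53 target CDKN1A averaged 183 FPKM and differed by 0.49 in IR against Con on the log2(FPKM + 1) scale (SE 0.11, limma adjusted p = 0.631). The proliferation marker MKI67 differed by -0.73 on that scale (SE 0.21, limma adjusted p = 0.680).

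FPKM divides the reads of a gene by its length and by a factor for its library, so levels of different genes can be set side by side roughly. For the 10 genes that length is the union of all annotated exons, such as 10004 bases over 39 transcripts for CD44. It can be longer than the transcript that is made, by a different factor for each gene. Of the 10 genes, 5 averaged at least 1 FPKM over the 12 libraries, and 53.9% of all protein-coding genes did so. MYC stood at 261 FPKM, CD44 at 44.3, ALDH1A3 at 21.6, BMI1 at 13.4 and KLF4 at 11.7 FPKM. The other 5 averaged 0.145 FPKM for PROM1, 0.0399 for POU5F1, 0.0200 for ALDH1A1, 0.00427 for SOX2 and 0.00288 FPKM for NANOG. No library of MYC fell to the highest CD44 value, and none of CD44 fell to the highest ALDH1A3 value. ALDH1A3 and BMI1 overlapped across libraries, as did BMI1 and KLF4. The lowest KLF4 library, at 9.84 FPKM, was far above the highest PROM1 library, at 0.225 FPKM. Below that gap, each gene overlapped the next in the order.

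**Figure D1:**
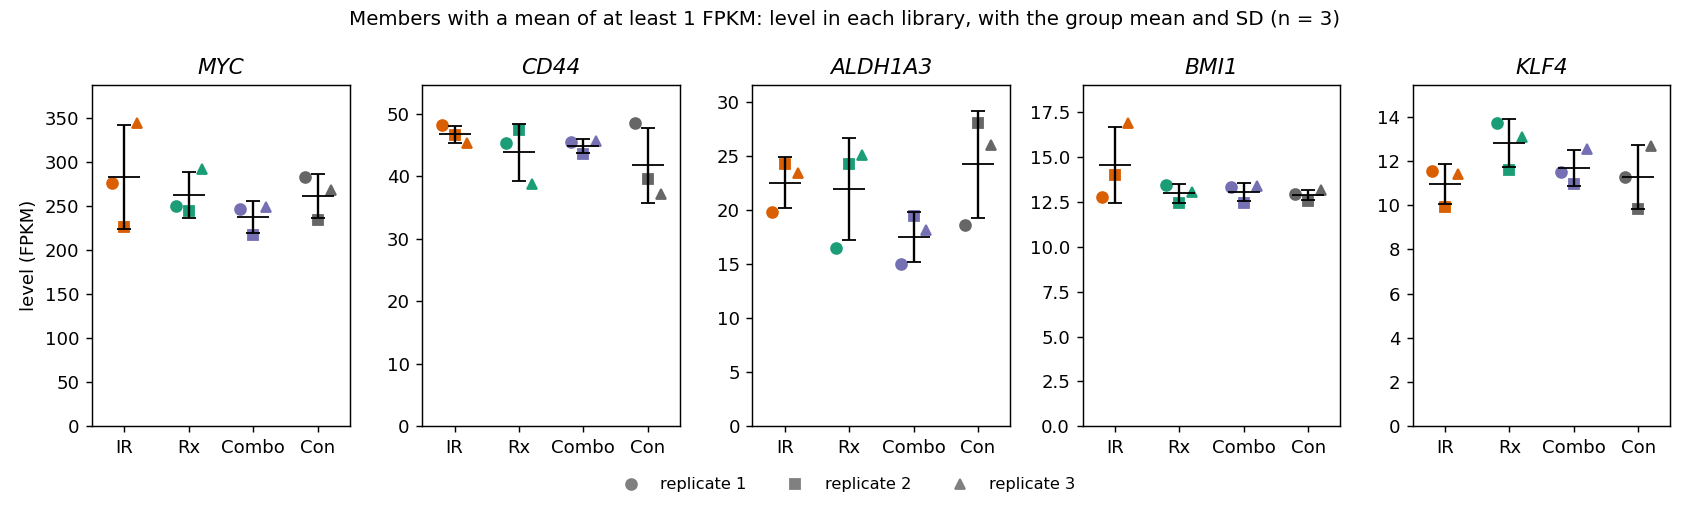
Level in FPKM (linear axis from 0) of the 5 genes that averaged at least 1 FPKM, for each library of IR, Rx, Combo and Con; marker shape gives the replicate number, and the bar with whiskers is the group mean and SD (n = 3). In the 5 pairs of groups compared, ranges overlap in every panel except ALDH1A3, where the 3 Combo libraries (15.0 to 19.5 FPKM) lie below the 3 IR libraries (19.9 to 24.3 FPKM).

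The 2 retinaldehyde dehydrogenases differed widely in level. Summed over the libraries and per base of gene, ALDH1A3 had 1204 times the reads of ALDH1A1 (exact 95% interval 655 to 2511, counting error only), a ratio that rests on 10 ALDH1A1 reads. The stretches around their RefSeq transcription starts (GRCh38.p14, 250 bases before to 50 after) are shown because they differ in CpG content, with those of CD44, SOX2 and NANOG beside them. CpG dinucleotides are in capitals. The ALDH1A3 window lies at chr15:100879581-100879880 on the plus strand, and the ALDH1A1 window at chr9:72953004-72953303 on the minus strand. Those of CD44, SOX2 and NANOG are at chr11:35138921-35139220, chr3:181711675-181711974 and chr12:7789152-7789451, all on the plus strand.

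ALDH1A3: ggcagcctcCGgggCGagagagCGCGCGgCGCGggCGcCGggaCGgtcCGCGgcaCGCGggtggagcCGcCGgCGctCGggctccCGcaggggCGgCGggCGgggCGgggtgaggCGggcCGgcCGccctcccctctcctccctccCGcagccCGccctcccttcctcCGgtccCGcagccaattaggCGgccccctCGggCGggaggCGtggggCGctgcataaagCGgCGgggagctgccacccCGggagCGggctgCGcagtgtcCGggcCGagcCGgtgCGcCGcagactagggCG
ALDH1A1: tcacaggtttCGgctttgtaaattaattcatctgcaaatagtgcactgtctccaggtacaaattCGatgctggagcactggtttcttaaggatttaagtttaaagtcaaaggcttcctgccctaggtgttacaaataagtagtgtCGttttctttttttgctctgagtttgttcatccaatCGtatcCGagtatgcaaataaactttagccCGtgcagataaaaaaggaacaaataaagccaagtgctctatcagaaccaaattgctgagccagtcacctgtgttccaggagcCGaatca
CD44: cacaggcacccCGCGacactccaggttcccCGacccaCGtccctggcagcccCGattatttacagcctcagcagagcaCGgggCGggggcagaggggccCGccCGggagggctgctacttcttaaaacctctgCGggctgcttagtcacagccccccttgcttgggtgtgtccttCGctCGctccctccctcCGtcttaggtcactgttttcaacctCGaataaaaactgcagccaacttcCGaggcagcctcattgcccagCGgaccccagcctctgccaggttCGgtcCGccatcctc
SOX2: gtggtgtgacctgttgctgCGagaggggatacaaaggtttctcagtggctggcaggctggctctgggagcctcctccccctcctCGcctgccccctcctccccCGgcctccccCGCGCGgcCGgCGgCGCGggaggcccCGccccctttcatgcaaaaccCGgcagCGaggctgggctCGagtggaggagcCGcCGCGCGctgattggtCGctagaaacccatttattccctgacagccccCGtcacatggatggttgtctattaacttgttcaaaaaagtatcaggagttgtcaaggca
NANOG: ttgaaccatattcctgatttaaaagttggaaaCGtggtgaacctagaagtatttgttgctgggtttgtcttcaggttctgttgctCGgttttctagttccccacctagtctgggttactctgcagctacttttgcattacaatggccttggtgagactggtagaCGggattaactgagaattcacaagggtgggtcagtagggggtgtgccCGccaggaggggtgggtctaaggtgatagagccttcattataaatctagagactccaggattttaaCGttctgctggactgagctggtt

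The ALDH1A3 window held 46 CpG dinucleotides, and 97.1% of the 35116 RefSeq windows held fewer; ALDH1A1 held 7, against a median of 14 over all windows. Windows were found for 8 of the 10 genes, and POU5F1 and MYC were not among them. Among expressed genes the CD44 window held 18, KLF4 33 and the 2 BMI1 windows 36 and 65 CpG dinucleotides. Among the genes with few reads, NANOG held 5, SOX2 20 and the 4 PROM1 windows 6 to 32. SOX2 thus had more CpG dinucleotides than CD44. A link between CpG content and level was not tested. The letters CACGTG, the E-box read by MYC with MAX, were found in the KLF4 window and in the upstream BMI1 window, and in 7.26% of all windows on either strand. The GC box GGGCGG was in windows of 6 of the 8 genes (45.0% of all windows), CCAAT in 4 (34.6%) and TATAAA in NANOG alone (11.5%). A gene was counted if any of its windows held the motif, and PROM1 had 4 windows and BMI1 2. The shares are per single window, so they are not on the same footing as the counts of genes. None of these motifs contains another, and a match describes letters and not a bound site.

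CD44 (ENSG00000026508, chromosome 11, 35138870 to 35232402, plus strand, hg38) carries hyaluronan binding to the cytoskeleton through ezrin, radixin and moesin. Its level was 48.1, 46.7 and 45.4 FPKM in IR, 45.4, 47.3 and 38.7 FPKM in Rx, 45.5, 43.6 and 45.6 FPKM in Combo, and 48.5, 39.6 and 37.1 FPKM in Con. The highest and the lowest of all 12 values were both in Con. The groups overlapped, and the largest difference was IR against Con at 0.17 on the log2(FPKM + 1) scale (SE 0.10, 95% interval -0.05 to 0.39, limma adjusted p = 0.757). These were bulk libraries, in which a change in the share of CD44-high cells and in CD44 RNA per cell cannot be told apart. The antisense gene CD44-AS1 averaged 1.27 FPKM with 8 to 18 reads per library, and the sense intronic AL133330.1 averaged 1.51 FPKM. Reads of CD44 and its antisense gene cannot be told apart where they overlap, since the strand setting is not known.

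Around CD44, 12 of the 19 hyaluronan and ezrin-radixin-moesin partners averaged at least 1 FPKM. The highest were the proteoglycan SRGN, a CD44 ligand, at 174 FPKM and moesin, MSN, at 43.6 FPKM. The splicing regulators ESRP1 and ESRP2, which promote the variant exons of CD44 in epithelial cells, averaged 0.00681 and 0.217 FPKM, and were picked out after their values were seen. The gene-level values do not give CD44 isoforms. None of the 12 passed the threshold in any of the 8 comparisons, and in Combo against Con 6 had a higher and 6 a lower mean (median log2 change 0.02, against -0.01 over all genes). The changes there ran from -0.61 to 0.56, with 2 genes higher and 1 lower at an unadjusted limma p under 0.05 (13.2% of all genes). HMMR had the smallest p of the list there and was named for it. It averaged 3.85 ± 0.722 FPKM in Combo and 6.38 ± 0.802 FPKM in Con (SD, n = 3 each, limma adjusted p = 0.122).

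PROM1 (ENSG00000007062, chromosome 4, 15963076 to 16084378, minus strand) was present in every library, but at 216 reads of 196325032 in all. There were 12, 12 and 18 reads in IR, 19, 26 and 17 in Rx, 12, 25 and 32 in Combo, and 14, 18 and 11 in Con. Summed by group, this was 0.942 reads per 1000000 in IR (exact Poisson 95% interval 0.679 to 1.27), 1.20 in Rx (0.918 to 1.54), 1.27 in Combo (0.988 to 1.61) and 0.942 in Con (0.682 to 1.27). The 4 intervals, which cover counting error only, overlapped, and the Combo libraries alone spanned 12 to 32 reads. Overlap of such intervals is not a test, and PROM1 was under the filter of the main fit. In the fit with no filter, its QTP change averaged over both radiation arms was 0.045 (SE 0.033, limma adjusted p = 0.807). At these counts and with this spread between libraries, no difference between groups was detected.

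Of 22 other surface and efflux markers of initiating cells, 13 averaged at least 1 FPKM, led by the integrin ITGB1 at 119 FPKM and the hepatocyte growth factor receptor MET at 56.1 FPKM. Named after their values were seen, the drug efflux pump ABCG2 averaged 1.82 FPKM, CD24 0.525 FPKM and EPCAM 0.0243 FPKM. None of the 13 passed the threshold in any comparison.

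**Figure D2:**
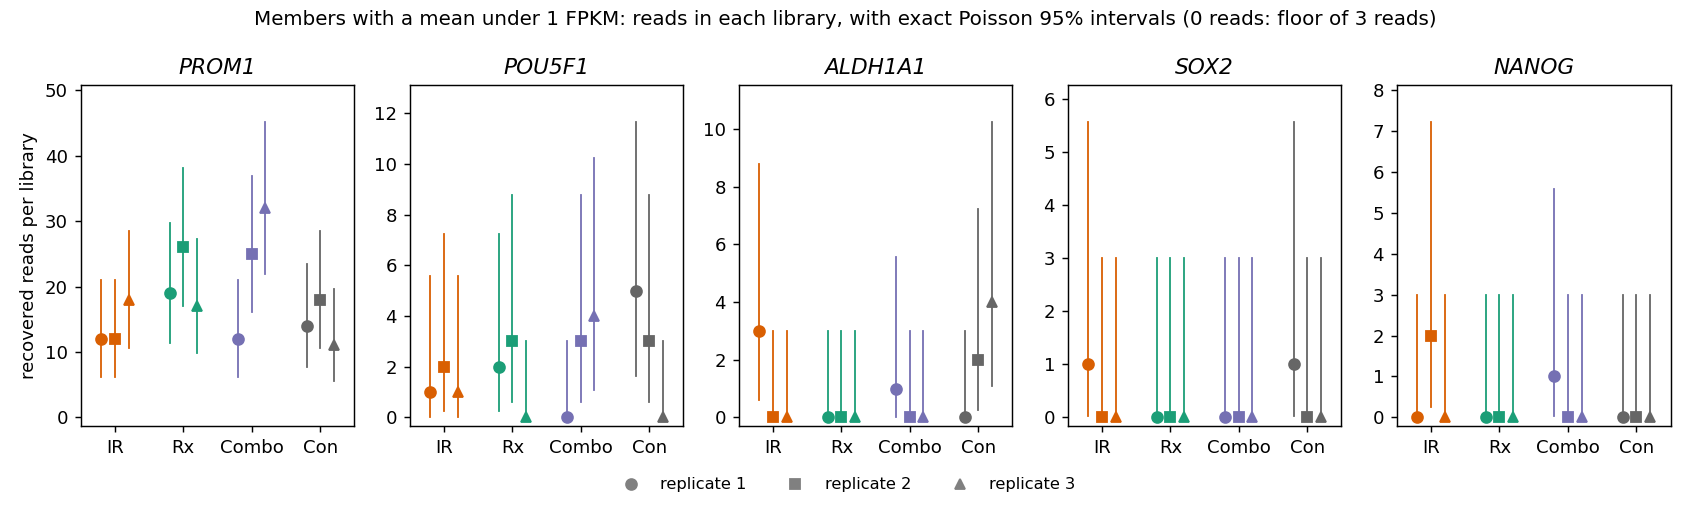
Recovered reads per library (linear axis) for the 5 genes that averaged under 1 FPKM, in IR, Rx, Combo and Con; marker shape gives the replicate number and vertical lines are exact Poisson 95% intervals, or for a count of 0 the floor of 3 reads, which cover counting error only. PROM1 has 11 to 32 reads in every library, and the other 4 have 0 to 5 reads, with SOX2 and NANOG at 0 in 10 of 12 libraries each.

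ALDH1A3 (ENSG00000184254, chromosome 15, 100877714 to 100916626, plus strand) had the largest single difference among the 5 expressed genes, in Combo against Con. Its level was 19.9, 24.3 and 23.5 FPKM in IR, 16.5, 24.3 and 25.1 FPKM in Rx, 15.0, 19.5 and 18.2 FPKM in Combo, and 18.7, 28.1 and 26.1 FPKM in Con. Replicate 1 was the lowest library of each group. Combo averaged 17.6 ± 2.32 FPKM and Con 24.3 ± 4.96 FPKM (SD, n = 3 each), with overlap through replicate 1 of Con. The log2 change in Combo against Con was -0.43 (SE 0.18, 95% interval -0.83 to -0.04), with an unadjusted limma p of 0.0334 and an adjusted p of 0.340 over the 13038 genes tested. Unadjusted p-values under 0.05 were reached by 13.2% of all genes in that comparison, and 9.81% had a smaller p than ALDH1A3.

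Against IR, the Combo libraries lay lower without overlap (log2 change -0.35, SE 0.18, limma adjusted p = 0.334). ALDH1A3 alone of the 5 tested genes had separate ranges there, and 11.6% of all genes were lower in Combo without overlap. The difference in Rx against Con was -0.14 (SE 0.18, limma adjusted p = 1.00), and in IR against Con -0.09 (SE 0.18, limma adjusted p = 0.927). Averaged over sham and irradiated cells, the QTP change was -0.24 (SE 0.13, limma adjusted p = 0.494), and the interaction of QTP with radiation was -0.20 (SE 0.25, limma adjusted p = 0.799). None passed the threshold of 0.05 in this fit, which had no replicate block. The fit with a block is given in the closing section. Without replicate 2 of Con the Combo difference was -0.32, and without replicate 1 of Con it was -0.60.

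Some mesothelial markers also had lower means in Combo. Summed over the 16 markers, they ran from 701 to 1043 FPKM in Combo and from 1039 to 1311 FPKM in Con, but KRT8 and KRT18 alone made up 92.6% of the mean sum in Combo and 93.3% in Con. The other 14 markers together averaged 64.0 FPKM in Combo and 80.2 FPKM in Con. All 5 of the 16 that averaged at least 1 FPKM (KRT18, KRT8, MSLN, CALB2 and BNC1) had lower means in Combo than in Con, with a median log2 change of -0.48, against -0.01 over all genes. None passed the threshold (smallest limma adjusted p = 0.155, for CALB2). Of the 11 under 1 FPKM, 4 had higher and 6 lower means in Combo than in Con, and PDPN had no read; WT1 averaged 1.10 ± 0.0546 FPKM in Combo and 0.787 ± 0.330 FPKM in Con (SD, n = 3 each). Over the 12 libraries the Pearson r of ALDH1A3 with MSLN was 0.80, given as a description since libraries share groups and depth. The summed fibroblast markers ran from 7.07 to 10.2 FPKM in Combo and from 5.43 to 7.48 FPKM in Con. The part of these markers in the ALDH1A3 difference was not tested.

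The ALDH1A3 locus also carries the antisense genes AC015712.2, with 148 to 295 reads per library and 1.75 FPKM, and AC015712.7, at 1.27 FPKM. Their reads cannot be told apart from those of ALDH1A3 where the genes overlap.

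ALDH1A1 (ENSG00000165092, chromosome 9, 72900662 to 73080442, minus strand) was represented by 10 reads in 4 of 12 libraries. There were 3, 0 and 0 reads in IR, 0 in all 3 Rx libraries, 1, 0 and 0 in Combo, and 0, 2 and 4 in Con. A library with no read allows up to 3 reads, or 0.0551 to 0.0754 FPKM for this gene in the 8 libraries without a read. The third retinaldehyde dehydrogenase, ALDH1A2, which was named after its values were seen, averaged 0.0112 FPKM. ALDH1A3 was thus the only 1A enzyme that averaged at least 1 FPKM.

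Of 17 other aldehyde dehydrogenases, 11 averaged at least 1 FPKM. The highest were the proline synthesis enzyme ALDH18A1 at 27.3 FPKM and the mitochondrial ALDH1B1 at 19.9 FPKM. In Combo against Con 9 of the 11 had lower means (51.5% of all genes did), with a median log2 change of -0.07. None passed the threshold in any comparison. The smallest p in Combo against Con, picked out after it was seen, was that of ALDH7A1, the antiquitin enzyme of lysine breakdown. It averaged 2.23 ± 0.157 FPKM in Combo and 3.00 ± 0.0274 FPKM in Con (SD, n = 3 each; log2 change -0.31, SE 0.07, limma adjusted p = 0.134). For the QTP change averaged over both radiation arms, 5 of the 11 (ALDH1B1, ALDH9A1, ALDH3B1, ALDH5A1 and ALDH7A1) were lower at an unadjusted p under 0.05, which 11.4% of all genes reached in either direction. The smallest limma adjusted p among them was 0.202.

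**Figure D3:**
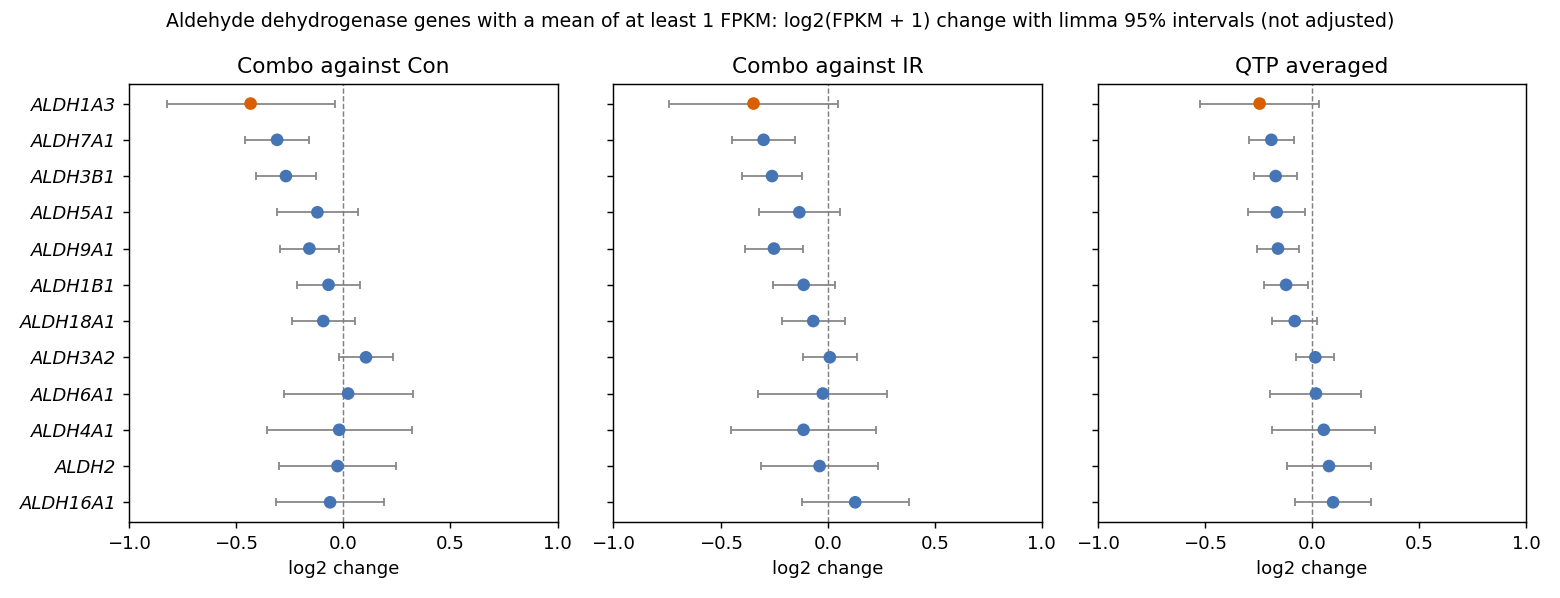
Log2 change, on the log2(FPKM + 1) scale, of ALDH1A3 and the other aldehyde dehydrogenases that averaged at least 1 FPKM, in 3 panels for Combo against Con, Combo against IR and QTP averaged over both radiation arms; points are limma estimates and lines their 95% intervals, not adjusted over genes. In Combo against Con, ALDH1A3 at -0.43 has the largest difference and a wide interval, ALDH7A1 at -0.31 has a narrower one, and none in any panel passes an adjusted p of 0.05.

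Of the 16 genes for retinoic acid synthesis, binding and reception, 10 averaged at least 1 FPKM. FABP5, a fatty acid binding protein that also carries retinoic acid, stood at 16.9 FPKM and the retinaldehyde reductase DHRS3 at 14.4 FPKM. In Combo against Con 4 had a higher and 6 a lower mean, and none passed the threshold. The retinol dehydrogenase RDH10, with the smallest p of the list there and named for it, averaged 6.55 ± 1.62 FPKM in Combo and 4.56 ± 0.611 FPKM in Con (SD, n = 3 each; log2 change 0.43, SE 0.15, limma adjusted p = 0.269).

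MYC (ENSG00000136997, chromosome 8, 127735434 to 127741434, plus strand), which drives ribosome synthesis and growth with its partner MAX, was the most abundant of the 10. It ranked 87 among 19951 protein-coding genes by mean FPKM. Its level was 277, 227 and 345 FPKM in IR, 251, 245 and 293 FPKM in Rx, 247, 217 and 249 FPKM in Combo, and 283, 235 and 268 FPKM in Con. Replicate 2 was the lowest library of each group, and IR replicate 3 was the highest of all. The groups overlapped. The largest difference between 2 groups was Combo against IR at -0.23 (SE 0.14, 95% interval -0.55 to 0.08, limma adjusted p = 0.409). It was 0.02 under quantile normalization and 0.05 with library quality weights, so its direction depended on these settings.

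The neighbouring long noncoding RNA PVT1 averaged 93.7 FPKM, with 4012 to 12875 reads per library, and CASC11 averaged 0.333 FPKM. Of 17 MYC partners and antagonists, 14 averaged at least 1 FPKM, with MAX at 18.3 FPKM and the antagonist MXD4 at 14.0 FPKM. MXD1, which pairs with MAX and represses E-box genes, had the smallest p of this list in 6 of the 8 comparisons and was named for that. It averaged 2.32 ± 0.310 FPKM in IR, 3.14 ± 0.216 FPKM in Rx, 3.78 ± 0.481 FPKM in Combo and 2.54 ± 0.0440 FPKM in Con (SD, n = 3 each). All 3 Combo libraries lay above all 3 IR libraries, as did those of 8.53% of all genes. They also lay above all 3 Con libraries, as did those of 10% of all genes. The QTP change averaged over both radiation arms was 0.38 (SE 0.07, limma adjusted p = 0.0741), which missed the threshold.

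All 22 nucleolar and polyamine genes listed as MYC targets averaged at least 1 FPKM. NPM1, the nucleolar chaperone, stood at 388 FPKM and nucleolin, NCL, at 146 FPKM. In Combo against Con, 21 of the 22 had lower means, with a median log2 change of -0.10, while 51.5% of all genes had lower means. None passed the threshold. NPM1 averaged 334 ± 19.7 FPKM in Combo and 397 ± 8.55 FPKM in Con (SD, n = 3 each; log2 change -0.25, SE 0.11, limma adjusted p = 0.363). In IR against Con 12 of the 22 had lower means (47.4% of all genes did; median -0.01), and in Rx against Con 11 (48.3% of all genes). The genes of such a list share regulators and are not independent of each other.

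KLF4 (ENSG00000136826, chromosome 9, 107484852 to 107490482, minus strand) is a zinc-finger factor of reprogramming that in differentiated epithelia accompanies cell cycle exit. Its level was 11.5, 9.90 and 11.4 FPKM in IR, 13.7, 11.6 and 13.1 FPKM in Rx, 11.5, 10.9 and 12.5 FPKM in Combo, and 11.3, 9.84 and 12.7 FPKM in Con. Replicate 2 was again the lowest library in every group, and Rx replicate 1 was the highest of all. In each of the 5 pairs of groups compared, the ranges overlapped. The difference was 0.17 in Rx against Con (SE 0.10, 95% interval -0.04 to 0.39, limma adjusted p = 1.00) and 0.13 for QTP averaged over both radiation arms (SE 0.07, limma adjusted p = 0.517). In the KLF and SOX families 15 of 25 other genes averaged at least 1 FPKM, led by SOX9 at 30.6 FPKM and SOX12 at 22.1 FPKM. None passed the threshold in any comparison.

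The 3 factors of the pluripotency circuit had almost no reads. POU5F1 (ENSG00000204531, chromosome 6, 31164337 to 31180731, minus strand) had 24 reads in all: 1, 2 and 1 in IR, 2, 3 and 0 in Rx, 0, 3 and 4 in Combo, and 5, 3 and 0 in Con. SOX2 (ENSG00000181449, chromosome 3, 181711924 to 181714436, plus strand) had 2 reads, 1 in IR replicate 1 and 1 in Con replicate 1. NANOG (ENSG00000111704, chromosome 12, 7787794 to 7799141, plus strand) had 3 reads, 2 in IR replicate 2 and 1 in Combo replicate 1. No group stood apart in any of the 3. Over all libraries the counts correspond to 0.122 reads per 1000000 for POU5F1 (exact Poisson 95% interval 0.0783 to 0.182), 0.0102 for SOX2 (0.00123 to 0.0368) and 0.0153 for NANOG (0.00315 to 0.0447). A library with no SOX2 read allows up to 3 reads, or 0.0624 to 0.0900 FPKM. An expression in a rare subset of cells below these limits would not be detectable here.

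Some of these few reads lie where assignment is uncertain. POU5F1 overlaps TCF19 on the opposite strand, which averaged 4.15 FPKM with 158 to 343 reads per library. Its processed copies POU5F1P3 and POU5F1P4 match its transcripts at 98.0% and 97.1% of aligned bases and had 23 and 11 reads. POU5F1P5 and POU5F1P6, which match at 86.3% and 77.3%, had 25 reads each. POU5F1B, which was not aligned, had 13. NANOGP8, matching NANOG at 99.5% of aligned bases, had 1 read, NANOGP5 (85.9%) had 16 and NANOGP10 (92.0%) had 2. SOX2-OT, the transcript within which SOX2 lies, had 26 reads. KLF4P1, which matches KLF4 at 71.0% of aligned bases, had 13 reads, against 8459 for KLF4. Thus POU5F1P3 and POU5F1P4, the 2 aligned copies closest to POU5F1, held 23 and 11 reads beside its own 24. The few reads of POU5F1 and of these 2 copies cannot be assigned with certainty.

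The wider pluripotency list was in the same state. Of its 18 genes, 0 averaged at least 1 FPKM and 9 had no read in any library. Its highest genes were TERT, the telomerase reverse transcriptase, at 0.986 FPKM and the DNA methyltransferase DNMT3B at 0.316 FPKM.

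BMI1 (ENSG00000168283, chromosome 10, 22321211 to 22331484, plus strand) stayed between 12.4 and 13.5 FPKM in every library outside IR. Its level was 12.8, 14.0 and 16.9 FPKM in IR, 13.5, 12.4 and 13.1 FPKM in Rx, 13.3, 12.5 and 13.4 FPKM in Combo, and 12.9, 12.6 and 13.1 FPKM in Con. The highest IR value was that of replicate 3, the library at an end of the leading principal component, and Con, at 12.6 to 13.1 FPKM, overlapped IR through replicate 1. The difference in IR against Con was 0.16 (SE 0.09, 95% interval -0.03 to 0.35, limma adjusted p = 0.743), and without IR replicate 3 it was 0.05. The readthrough gene COMMD3-BMI1 had no read and the upstream COMMD3 averaged 3.41 FPKM. COMMD3-BMI1 overlaps BMI1 on the same strand, and how shared reads were assigned is not known. Its lack of reads therefore does not show that readthrough was absent.

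Of 24 Polycomb genes with and beside BMI1, 22 averaged at least 1 FPKM, with PHC2, another complex 1 subunit, at 25.3 FPKM and the chromodomain reader CBX6 at 21.1 FPKM. EZH2, the methyltransferase of complex 2, had the smallest p of the list in Combo against Con and was named for it. It averaged 4.73 ± 0.593 FPKM in Combo and 6.51 ± 1.18 FPKM in Con (SD, n = 3 each; log2 change -0.38, SE 0.11, limma adjusted p = 0.189). CDKN2A, the classic BMI1 target, averaged 0.117 FPKM and the adjacent CDKN2B had no read in any library, both picked out after their values were seen. These RNA values do not give the copy number of the locus, and a part of BMI1 in them was not tested. None of the 22 passed the threshold in any comparison.

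Set together, none of the 5 tested genes was called in any of the 8 comparisons by limma without a replicate block at an adjusted p under 0.05. Over 25 alternative settings, 2 of the 5 genes, ALDH1A3 and KLF4, were called in at least 1. The share of all 13038 genes called was 0% in IR, Rx and Combo against Con, in Combo against IR and Rx, in the interaction and for radiation averaged over both drug arms, and 0.092% (12 genes) for QTP averaged over both radiation arms. At an unadjusted p under 0.05, ALDH1A3 in Combo against Con was the only call among the 40 gene and comparison pairs. The background share of genes at that p was 6.86% for IR against Con, 3.26% for Rx against Con and 13.2% for Combo against Con. It was 17.5% for Combo against IR and 9.11% for Combo against Rx, 7.63% in the interaction, 11.4% for QTP averaged and 8.51% for radiation averaged. Limma voom on recovered reads called none of the 5 genes at the adjusted threshold. The 95% intervals of the fold in Combo against Con, on the FPKM + 1 scale, were 0.564 to 0.972 for ALDH1A3, 0.928 to 1.26 for CD44, 0.731 to 1.13 for MYC, 0.888 to 1.15 for BMI1 and 0.892 to 1.20 for KLF4. The intervals are not adjusted for the number of genes, and folds within them were not told apart with 3 libraries a group. Nothing in the labels says that replicates came from separate cultures, so the spread that the p-values rest on may be technical.

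**Figure D4:**
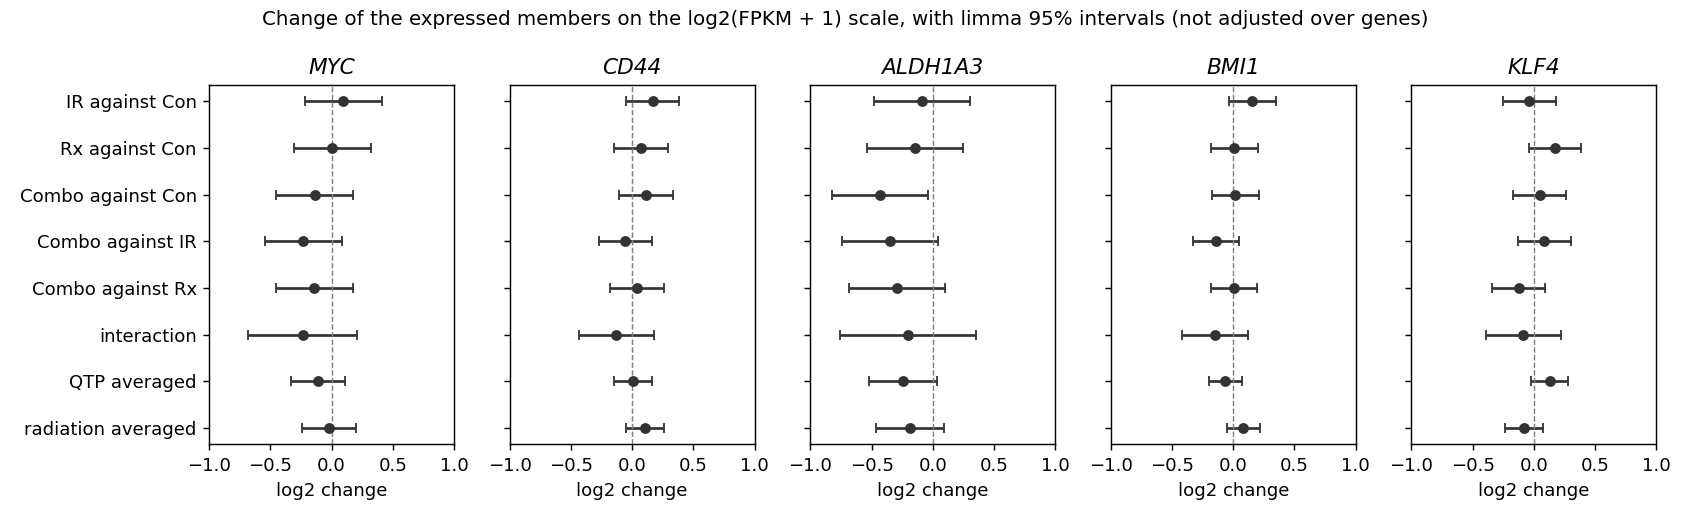
Log2 change, on the log2(FPKM + 1) scale, of the 5 genes that averaged at least 1 FPKM in the 8 comparisons (5 between groups, the interaction, and QTP and radiation each averaged over the other factor); points are limma estimates and lines their 95% intervals. The interval leaves 0 only for ALDH1A3 in Combo against Con (-0.83 to -0.04), where the adjusted p is 0.340.

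Across the 12 libraries the Pearson r of log2(FPKM + 1) over the 10 pairs of expressed genes ran from -0.56 for CD44 with ALDH1A3 to 0.64 for MYC with BMI1, with a median of 0.03. These correlations are a description with no test, over libraries that share groups and depth. Among the 13035 to 13037 genes that each could be set beside, CD44 was most like GBE1 (r = 0.97) and NARF (0.97). ALDH1A3 was most like KCNH3 (0.95) and AC073857.1 (0.94), and KLF4 like AC145423.3 (0.91) and HERC5 (0.90). MYC was most like CSNK2A1 (0.92) and the early response factor EGR1 (0.90), and BMI1 like UTP3 (0.92) and ATAD1 (0.92).

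In the Notch, Hedgehog and Wnt list, 13 of 21 genes averaged at least 1 FPKM, led by the receptor NOTCH2 at 31.8 FPKM and the ligand JAG2 at 25.8 FPKM. None passed the threshold in any comparison. NOTCH2 averaged 39.9 ± 4.98 FPKM in Combo and 29.7 ± 5.72 FPKM in Con (SD, n = 3 each; log2 change 0.43, SE 0.22, limma adjusted p = 0.437), with all Combo libraries above all Con libraries, as were 10% of all genes.

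**Figure D5:**
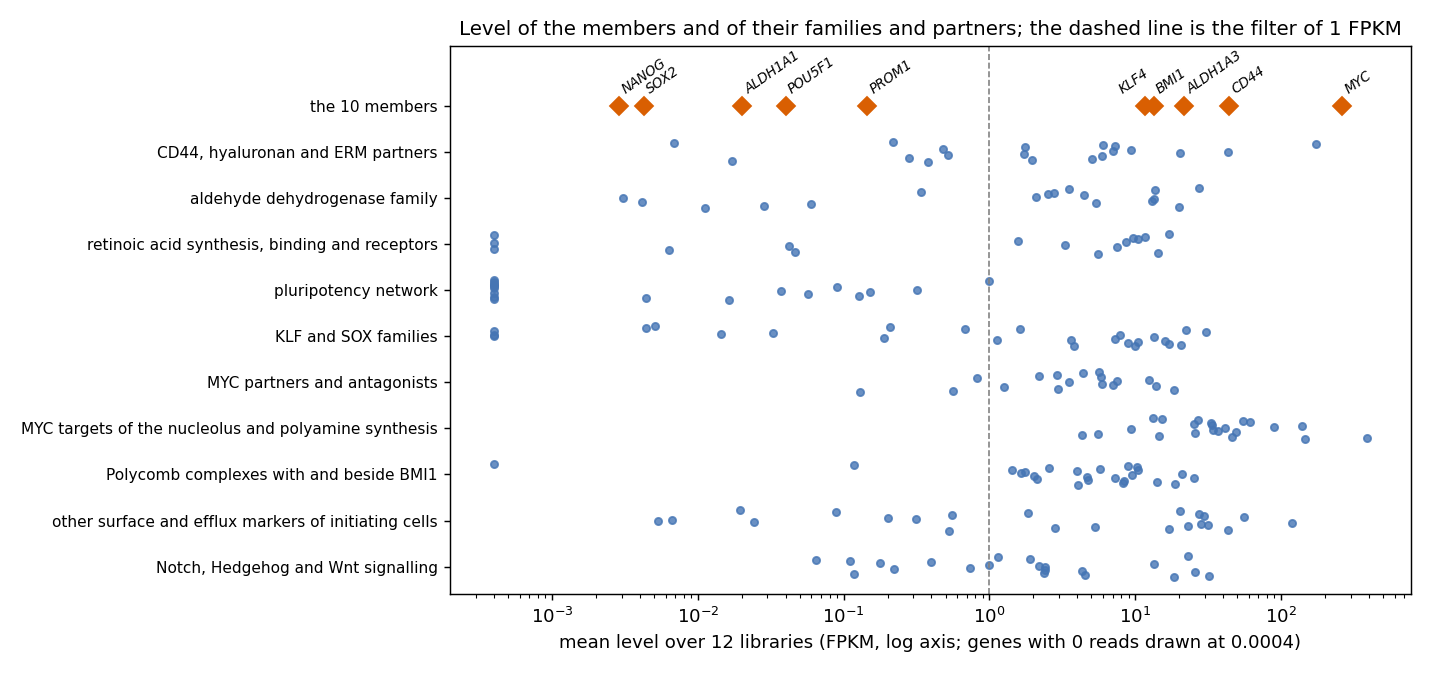
Mean level over 12 libraries in FPKM (log axis; genes with no read are drawn at the left edge) of the 10 genes and of the genes in 10 lists of their families and partners; the dashed line marks the filter of 1 FPKM. The 10 genes fall into 5 at or above 11.7 FPKM and 5 at or below 0.145 FPKM, and the pluripotency list lies wholly left of the line.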

How the data were processed

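RNA-seq was measured in 12 libraries of MSTO-211H cells, 3 in each of IR, Rx, Combo and Con. The authors deposited 1 table of FPKM per gene, with genome build hg38 per the submitters' processing notes. No aligner, counter, strand setting or library factor is given in the sources used here. Per the labels' protocols, total RNA was made into NEBNext Ultra libraries and sequenced on an Illumina NovaSeq instrument. All values were whole multiples of the value of 1 read (100% within 0.01 of a whole number), which gave reads per gene and depths of 13188257 to 18630958. Intervals on reads (exact Poisson, 95%) and floors of 3 reads cover counting error only.

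Genes that averaged at least 1 FPKM (13038) were tested with limma 3.58.1 in R 4.3.3 on log2(FPKM + 1), with a variance trend, all 12 libraries sharing 1 spread, two-sided, Benjamini-Hochberg adjustment over all genes and a threshold of 0.05. Fold changes on that scale understate the change of low genes. The 8 comparisons were IR, Rx and Combo against Con, Combo against IR and against Rx, the interaction, QTP averaged over sham and irradiated cells, and radiation averaged over vehicle and QTP cells; those that share a group are not independent. The 10 genes and all lists were chosen with earlier results of these data known. Named by rule were the 10 genes, their copies and neighbours with a read, the 2 highest genes of each list, the 2 genes most like each expressed gene, and MKI67, CDKN1A and MSLN; any other gene was named after its values were seen. Spans and exon lengths of the 10 genes equal those of GENCODE 29, and promoter windows come from RefSeq (GRCh38.p14).

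Replicate numbers come from the labels, which do not say what a number shares. Deviations from the group means correlated over 0.1 in every same-numbered pair of IR with Con (0.161 to 0.354). The same held for Rx with Con (0.191 to 0.282), so numbers may be pairs in these 2 comparisons. The main values printed for them come from the fit without a replicate block, so their SEs include any spread between numbers. Adding the block changed no call in these 2. In the other comparisons at least 1 pair was under 0.1. The alternatives, listed with their effect in the closing section, were other pseudocounts, filters, scalings, weights and models, and leaving out each library.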

Additional observations from a re-analysis of the deposited data

How the results depend on the processing

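Of 985 alternative values of the 40 gene and comparison pairs, 3 passed the threshold and 50 changed sign. The 3 were ALDH1A3 in Combo against Con with the replicate block (limma adjusted p = 0.0470; 0.129 to 0.753 under the other alternatives), and ALDH1A3 (0.0155; 0.151 to 0.999) and KLF4 (0.0387; 0.448 to 0.999) in Combo against IR with library quality weights, whose estimation stopped before converging. The cause was not tested. With the replicate block 90 genes, 1 of them among the 10, were called in Combo against Con, where same-numbered libraries did not all deviate together (correlations of -0.0066, 0.21 and -0.061), and 3 genes for radiation averaged. Over all libraries 10 of 12 correlated best with their own number, a hint from the data and not the design. With library quality weights 1013 genes were called in IR against Con, 178 in Combo against Con, 4496 (2 of the 10) in Combo against IR, 777 for QTP averaged and 359 for radiation averaged.

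With no filter, 35273 genes were tested and none of the 10 was called. The other calls were 5 for IR, 1 for Rx and 5 for Combo, each against Con, 6 for Combo against IR, 4 for Combo against Rx, 6 in the interaction, 6 for QTP averaged and 5 for radiation averaged. For QTP averaged, where 12 genes were called, the count was 24 with a filter of 5 FPKM, 23 with quantile normalization, 30 with protein-coding genes alone and 34 with limma voom on recovered reads. It was 0 when rescaled to TPM or by the median of ratios, with no variance trend, and without IR replicate 3 and Combo replicate 3 together. Leaving out 1 library gave 0 to 18 genes for QTP averaged (0 in 7 of the 12 fits), 0 to 3 in IR against Con, 0 to 956 in Combo against IR (956 without IR replicate 1), 0 to 3 in the interaction and 0 to 1 for radiation averaged. Leaving out any single library called none of the 10.

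The sign changes were of values that passed no threshold. Rescaling to TPM moved the median of all genes to -0.095 in IR against Con, -0.082 for Rx against Con, 0.087 in Combo against IR and 0.16 in the interaction; relative to that median, 7 of the 8 values next given keep their main sign, and MYC in Rx against Con (-0.0049) does not. Under it the log2 change was -0.016 for MYC in IR against Con. It was -0.018 for CD44, -0.087 for MYC and -0.079 for BMI1 in Rx against Con, 0.049 for CD44 in Combo against IR, and 0.067 for CD44, 0.10 for KLF4 and 0.037 for BMI1 in the interaction. Under quantile normalization it was -0.065 for MYC in IR against Con, -0.068 for MYC and -0.013 for BMI1 in Rx against Con, 0.060 for CD44 and 0.020 for MYC in Combo against IR, 0.023 for MYC in Combo against Rx, and 0.018 for CD44 and 0.087 for MYC in the interaction. With library quality weights it was -0.16 for MYC in IR against Con, 0.045 for MYC in Combo against IR, -0.016 for BMI1 in Combo against Rx, 0.021 for MYC in the interaction and 0.035 for MYC for QTP averaged. For MYC in Rx against Con it was -0.0043 by the median of ratios and -0.0023 with limma voom. Without IR replicate 3 and Combo replicate 3 together it was -0.059 for MYC in IR against Con, -0.0093 for BMI1 in Combo against Rx and -0.0078 for CD44 for QTP averaged. That alternative and the limma voom fit were chosen after seeing the data.

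Leaving out 1 library, the log2 change in IR against Con ran from -0.26 to 0.025 for ALDH1A3, -0.12 to 0.046 for KLF4 and -0.059 to 0.24 for MYC. The Rx difference from Con ran from -0.076 to 0.062 for MYC, -0.015 to 0.040 for BMI1, -0.0061 to 0.18 for CD44 and -0.31 to 0.042 for ALDH1A3. It ran from -0.036 to 0.13 for KLF4 in Combo against Con, -0.022 to 0.039 for BMI1 and -0.045 to 0.096 for CD44 in Combo against Rx, -0.031 to 0.063 for CD44 for QTP averaged and -0.10 to 0.050 for MYC for radiation averaged.

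The planned edgeR fits and voom with TMM factors on recovered reads were not run. POU5F1, ALDH1A1, SOX2 and NANOG, with 0 to 5 reads per library, are limited by depth.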
